A study of Mus musculus with 9 samples.

Results

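The ligands of the epidermal growth factor (EGF) receptor, the ERBB receptors that bind them and the feedback inhibitor Errfi1 were followed across 9 libraries of mouse intestinal crypt epithelium. The 10 genes were taken by symbol from a table of 24930 genes: the ligands Areg, Ereg, Egf, Hbegf, Tgfa and Btc, the receptors Egfr, Erbb2 and Erbb3, and Errfi1. All 10 were found, each as 1 row, and 8 of them reached the level required for the test over genes, as did 12097 genes in all. Values are FPKM, which adjusts fragment numbers for transcript length and for library size, so levels can be set side by side between genes.

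Poly(A) RNA was sequenced 8, 9 and 10 days after a single gain-of-function allele of Ctnnb1, the β-catenin gene, was induced, with 1 library per group and day. There were 3 control libraries and 2 sets of 3 mutant libraries. The titles call set A heterozygous for β-catenin, and set B heterozygous for β-catenin and for Cdx2, a homeobox regulator of intestinal identity. The library names go the other way: CDX2HET stands beside EXON3 in the names of set A, and EXON3 without CDX2HET in those of set B. Which set carries the Cdx2 allele cannot be told apart from the labels, and the neutral names A and B are kept. The sources used here give no control genotype, Cre driver, inducing agent, age or sex. Nothing in the labels states that the libraries came from separate animals, so p-values here reflect only how these libraries varied, which may be technical.

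The libraries had the markers of epithelium: Epcam lay between 703 and 794 FPKM in all 9. Other cell types were present at low levels, with the T cell gene Cd3e at 0.306 to 3.17 FPKM and the stromal collagen gene Col3a1 at 0.00934 to 1.88 FPKM. The day-9 library of set B stood apart from the other mutants. On the first principal component, which held 43.5% of the variance, it lay at -19.1, against 2.57 to 30.0 for the other 5 mutant libraries and -22.7 to -21.6 for the controls. It also had Xist, a gene transcribed in female cells, at 0.1002 FPKM, against 27.0 to 39.4 in the other 8. By this marker the library differed in sex from every control library. The part of sex in its values was not tested. Summed FPKM ran from 624923 to 755802 per library, and 1 FPKM corresponded to 16.8 to 19.3 fragments for each kilobase, read from the steps between low values.

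EGF family ligands are made as membrane-bound precursors, and proteases of the ADAM family cut them free. A ligand joins receptor chains into a pair, and the paired kinases then switch on RAS, ERK and PI3 kinase signalling. ERBB2 binds no known ligand and ERBB3 has little kinase activity of its own, so both work mainly as partners, while the protein of Errfi1 (MIG6) binds the EGF receptor kinase and restrains it. In the intestinal crypt EGF is supplied by Paneth cells and drives division of the stem cells beside them.

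The ligand genes Epgn, Ereg, Areg and Btc follow each other in that order on mouse chromosome 5 in the RefSeq annotation. Of the 2 genes tested there, Areg and Btc, Areg, which codes for amphiregulin, passed the test described below. Its promoter is shown with those of Errfi1, which holds the same motif, and of Tgfa, which does not. Promoter windows from RefSeq (GRCm38.p6), reaching from 250 bases before to 50 bases after the start of the gene, were found for 7 of the 10 genes and not for Ereg, Hbegf and Erbb3. They were searched on both strands for a cyclic AMP response element (TGACGTCA), an AP-1 site (TGANTCA), a TCF/LEF site (CTTTGAT) and a TEAD site (GGAATG). No searched motif overlapped another in the windows of these genes. The response element is marked in capitals where it occurs, and the part before the start site is printed, from chr5:91139349-91139598 for Areg, chr4:150854820-150855069 for Errfi1 and chr6:86194972-86195221 for Tgfa, all on the plus strand.
Areg promoter: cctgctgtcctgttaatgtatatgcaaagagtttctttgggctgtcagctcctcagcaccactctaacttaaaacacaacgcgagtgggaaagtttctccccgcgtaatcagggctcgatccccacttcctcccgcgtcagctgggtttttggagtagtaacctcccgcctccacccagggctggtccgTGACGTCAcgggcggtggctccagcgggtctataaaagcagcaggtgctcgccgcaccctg
Errfi1 promoter: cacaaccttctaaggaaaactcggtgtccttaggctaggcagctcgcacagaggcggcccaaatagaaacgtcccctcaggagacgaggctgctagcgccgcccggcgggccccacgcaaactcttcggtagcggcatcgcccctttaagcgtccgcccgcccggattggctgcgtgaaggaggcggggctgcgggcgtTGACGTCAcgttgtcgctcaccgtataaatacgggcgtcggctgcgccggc
Tgfa promoter: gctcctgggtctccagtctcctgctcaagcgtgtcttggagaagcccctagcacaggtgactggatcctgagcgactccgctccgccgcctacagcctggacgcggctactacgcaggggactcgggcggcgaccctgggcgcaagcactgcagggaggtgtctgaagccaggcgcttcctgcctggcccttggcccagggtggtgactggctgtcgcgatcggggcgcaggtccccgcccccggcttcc
The element began 61 bases before the start site of Areg and 51 bases before that of Errfi1, and 1.79% of the 32851 promoter windows of the genome hold it. A TEAD match was found in the window of Erbb2, beginning 88 bases before the start, and in a further window of Errfi1, at 65 bases; 14.7% of all windows hold one. No AP-1 match (7.81% of windows) and no TCF/LEF match (3.73%) was found in the windows of these 7 genes. These are matches of letters, and no binding was measured.

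The receptors Erbb3 and Erbb2 were the highest of the 10 genes and the ligands Egf and Ereg the lowest. Averaged over the 9 libraries, Erbb3 stood at 62.4 FPKM, Erbb2 at 43.1, Errfi1 at 10.3, Tgfa at 8.56, Egfr at 7.35, Areg at 5.81, Hbegf at 5.08, Btc at 3.25, Egf at 0.388 and Ereg at 0.264. The ranges of neighbours in this order were separate in 2 places, between Erbb2 and Errfi1 and between Btc and Egf. Erbb3 was above Erbb2, Errfi1 above Tgfa and Hbegf above Btc in 9 of 9 libraries although their ranges overlapped. The place of Areg depended on the group: it was above Egfr in 0 of 3 control and 5 of 6 mutant libraries, and above Btc in 0 of 3 control and 6 of 6 mutant libraries.

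**Figure D1:**
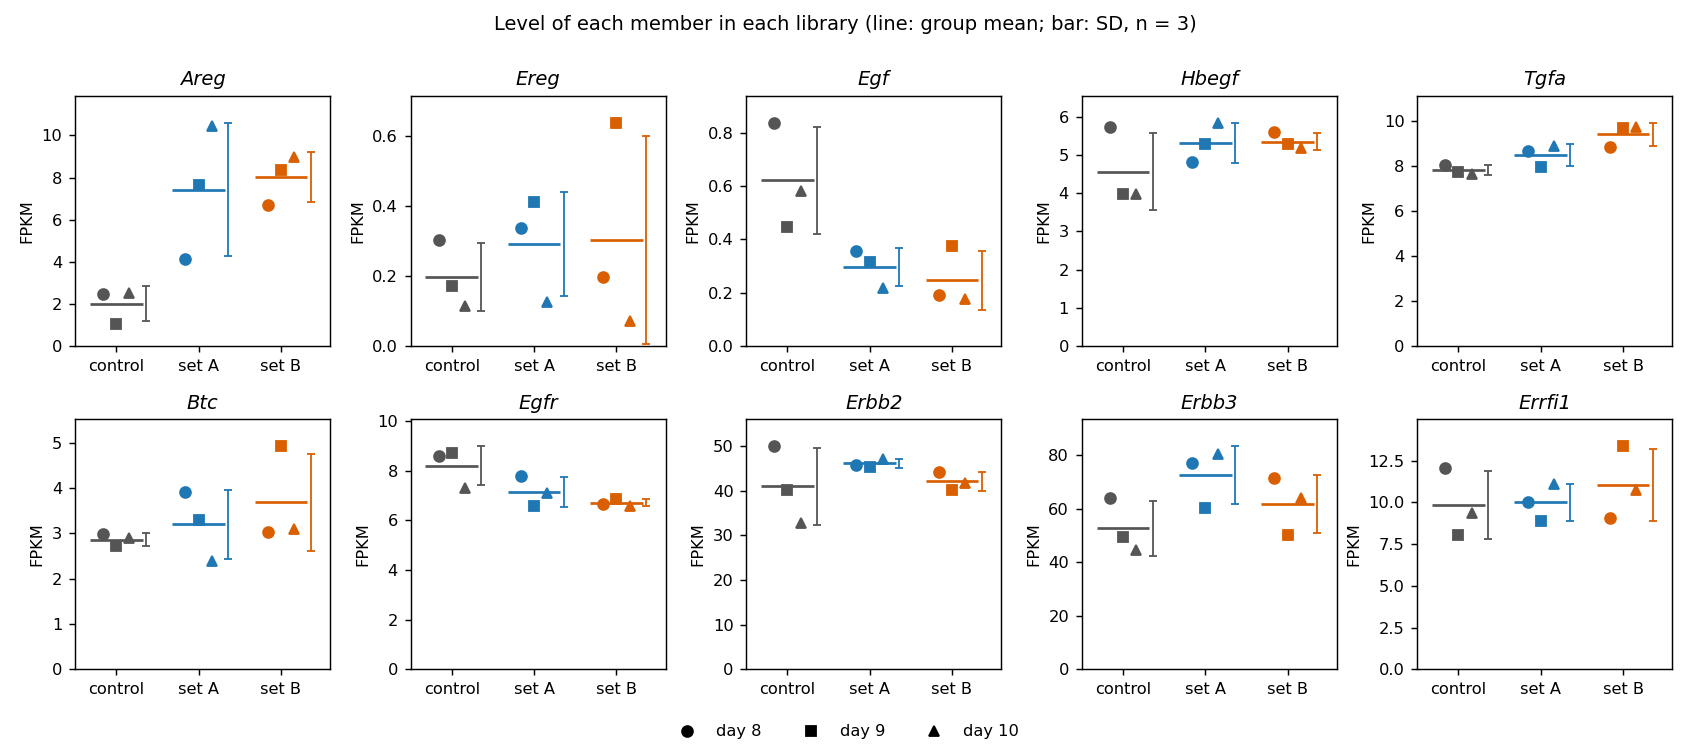
FPKM of each of the 10 genes (vertical axes, linear and starting at 0) in the 3 control, 3 set A and 3 set B libraries; points are libraries shaped by day, lines are group means and bars SD (n = 3). Areg was separate between control (1.05 to 2.52) and mutant libraries (4.14 to 10.5), and Egf was separate the other way.

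The first comparison, of the 6 mutant libraries with the 3 control libraries, asks what differed in crypts after induction. Areg was the member that rose. Its level was 2.46, 1.05 and 2.52 FPKM in control on days 8, 9 and 10. It was 4.14, 7.66 and 10.5 FPKM in set A and 6.69, 8.35 and 8.99 FPKM in set B on the same days. All 6 mutant libraries were above the highest control library, and the lowest mutant library was that of set A on day 8. The mean was 2.01 ± 0.828 FPKM in control (SD, n = 3) and 7.72 ± 2.17 in the mutants (SD, n = 6), a ratio of 3.84. On the log2(FPKM + 1) scale, which understates the change of low genes, the difference was 1.53 ± 0.27 (SE; 95% interval 0.90 to 2.16; limma, adjusted p = 0.0487).

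Areg was thus 1 of 8 tested members that passed, 1 higher and 0 lower, where 1.16% of all tested genes passed and 0.513% were higher. Over all genes 62 were higher and 78 lower, and 133 and 36 after rescaling to equal totals, where Areg passed as well (1.57; limma, adjusted p = 0.0279). The earlier results from which the members were chosen already held this rise, so it is a description and no independent support. Groups that did not overlap were found for 1 of the 8 tested members and for 12.6% of all tested genes. Day for day, Areg was higher than the control library in 6 of 6 pairs, by 0.57 to 2.19 on the log2(FPKM + 1) scale with a median of 1.60. Here and below, each control library is paired with both sets of its day, so the pairs are not independent. The share of all genes with such a count was not taken. The call lay close to the threshold. With the day as a block the same difference had an adjusted p of 0.0617 in limma, and with no filter on low genes 0.0680. With 1 library left out at a time it passed in 2 of 9 limma fits. Without the day-8 library of set A it was 1.69 (limma, adjusted p = 0.0267), and 112 of 12097 tested genes passed. Without day 9 of set B it was 1.52 (limma, adjusted p = 0.0336), and 8.22% of all genes passed. In limma it did not pass without the day-8, day-9 or day-10 control library (adjusted p = 0.0958, 0.165 and 0.147), without day 9 or day 10 of set A (0.0910 and 0.0727), or without day 8 or day 10 of set B (0.0948 and 0.115). Over the 9 fits the difference stayed between 1.28 and 1.69. The Areg transcript has 1215 bases, and its values rested on about 24.7 to 214 fragments per library.

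In a bulk sample, fewer cells of a type and less RNA per cell cannot be told apart. Beside the rise of Areg, the summed levels of other marker lists were read in the same libraries. The 10 dissociation stress genes summed to 211 to 219 FPKM in control and 232 to 262 in the mutants, without overlap. Of their 8 tested genes 0 passed, 5 were positive and the median difference was 0.06. The 8 macrophage and myeloid markers summed to 16.5 to 22.4 FPKM in control and 24.4 to 36.04 in the mutants, also without overlap. Of their 4 tested genes 0 passed, 4 were positive and the median difference was 0.42. The 9 fibroblast and stromal markers summed to 6.10 to 7.12 FPKM in control and 3.10 to 19.1 in the mutants, and the 7 T cell markers in the table to 44.8 to 76.9 and 17.3 to 63.9. Their part in the result was not tested.

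The make-up of the ligand transcripts differed between the groups. The FPKM of the 6 ligands summed to 20.3, 16.1 and 17.7 in control, 22.2, 24.9 and 27.9 for set A, and 24.5, 29.2 and 27.2 for set B. Every mutant sum was above every control sum. Without Areg the sum was 15.04 to 17.9 in control and 17.2 to 20.9 in the mutants, so that the groups overlapped. Areg made up 12.1%, 6.55% and 14.2% of the ligand sum in control, 18.6%, 30.8% and 37.5% for set A, and 27.3%, 28.6% and 33.0% for set B. Tgfa, the gene for transforming growth factor α, made up 39.5% to 48.0% in control and 31.7% to 38.9% in the mutants. Areg held rank 4 among the ligands in each control library and rank 1, 2 or 3 in the mutants. Tgfa was above Areg in 3 of 3 control and 5 of 6 mutant libraries.

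**Figure D2:**
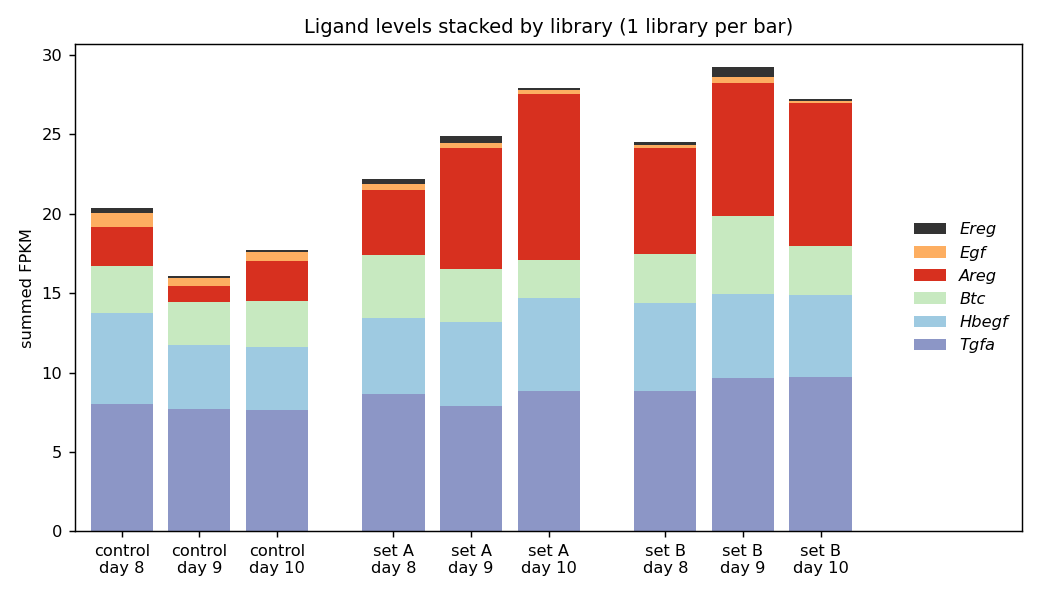
FPKM of the 6 ligand genes stacked for each of the 9 libraries (vertical axis, linear from 0). The stack reached 16.1 to 20.3 FPKM in control and 22.2 to 29.2 in the mutants, and the Areg part was at most 14.2% in control and at least 18.6% in the mutants.

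Egf, the founding ligand of the family, was low and lay lower in the mutants. It measured 0.837, 0.445 and 0.580 FPKM in control, 0.358, 0.315 and 0.218 for set A, and 0.189, 0.374 and 0.174 for set B. All 6 mutant libraries were below the lowest control library. The mean was 0.621 ± 0.199 FPKM in control (SD, n = 3) and 0.271 ± 0.0882 in the mutants (SD, n = 6), a ratio of 0.437. Egf was under the filter of the test over genes. Its difference of -0.35 on the log2(FPKM + 1) scale was therefore set against the 84 ways to divide the libraries (exact permutation, two-sided, p = 0.0119). That is the lowest p that 84 divisions can give, and the divisions took no account of the day. This p is for Egf alone: among 2706 genes that stayed under 1 FPKM with a mean of at least 0.1, 7.61% had groups that did not overlap, and 2.99% were lower in the mutants. In limma without the filter, Egf had an adjusted p of 0.133. It was lower than the control library of the same day in 6 of 6 pairs, with differences of -0.63 to -0.07.

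The values of Egf rested on at most 14.1 to 70.5 fragments, counted over the longest of its 9 transcripts. Paneth cell genes moved in the same direction. Their 15 markers summed to 60534 to 101860 FPKM in control and 19009 to 42801 in the mutants, and 7 of 15 passed as lower and 0 as higher (median difference -1.28; 0.645% of all tested genes were lower). Lyz1, the Paneth cell lysozyme gene, was at 6449 to 8820 FPKM in control and 2091 to 4252 in the mutants. Within the groups the orders of Egf and these genes differed in part. Among the mutants, day 10 of set B had the highest Paneth sum, 42801 FPKM, and the lowest Egf, 0.174. Day 9 of set B had the highest Egf and the highest Lyz1 of the mutants. In control the Paneth sum was highest on day 10 and Egf on day 8. Whether the Egf difference follows the Paneth cell genes was not tested.

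Ereg, the gene for epiregulin, lay at the lower end as well and overlapped between the groups. It measured 0.305, 0.173 and 0.115 FPKM in control, 0.339, 0.413 and 0.126 for set A, and 0.198, 0.639 and 0.0700 for set B. Set B held both extremes, the highest on day 9 and the lowest on day 10. The means were 0.197 ± 0.0974 FPKM in control (SD, n = 3) and 0.298 ± 0.211 in the mutants (SD, n = 6), and the difference of 0.10 on the log2(FPKM + 1) scale did not pass (two-sided exact permutation p = 0.5). Its values rested on about 4.92 to 49.4 fragments. Within the 6 mutant libraries the order of Ereg was the same as that of Cd3e, and that of Col3a1 differed from it in the last 2 places. With the controls included the match did not hold. Cd3e was highest of all on day 9 of control, at 3.17 FPKM, where Ereg was at 0.173. Col3a1 was at most 0.0362 FPKM in control, below every mutant library, while Ereg overlapped. Among the mutants, Egf and Btc were also highest on day 9 of set B. Ereg and Areg, which are neighbours, did not share an order: Areg was highest in set A on day 10, where Ereg held rank 5 of 6. The part of T cells and stroma in the Ereg values was not tested.

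**Figure D3:**
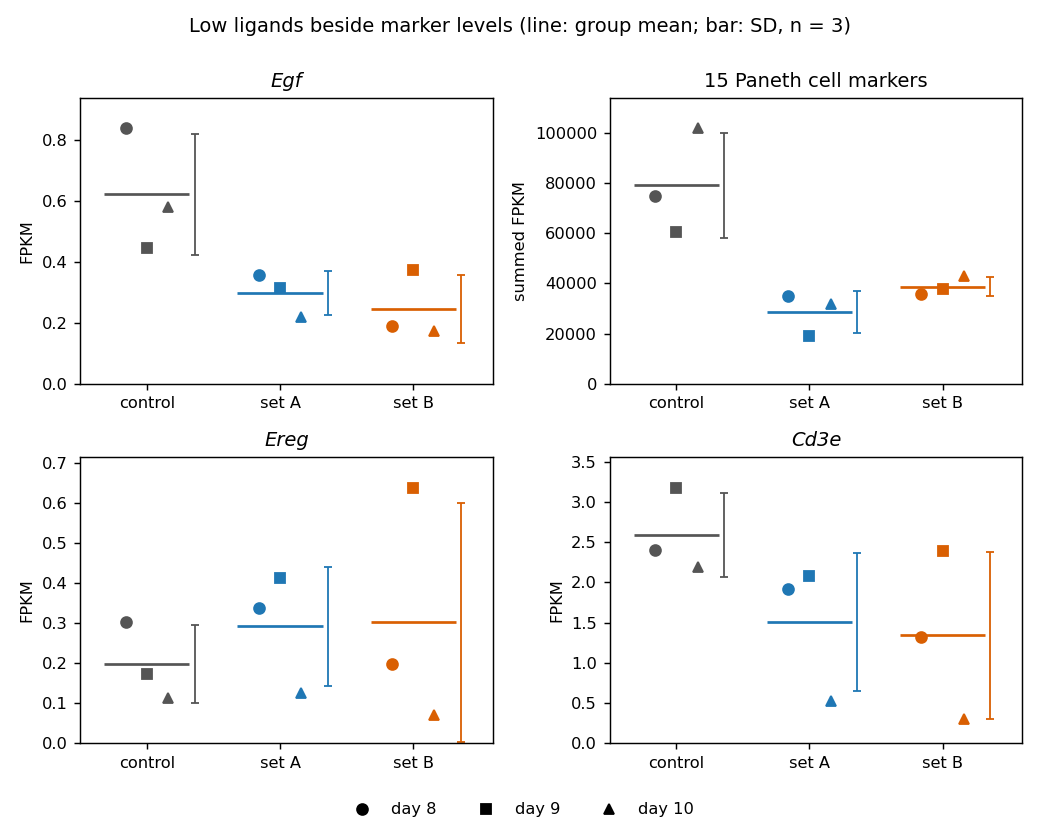
FPKM of Egf and Ereg (left), the summed FPKM of 15 Paneth cell markers (top right) and FPKM of the T cell gene Cd3e (bottom right), with libraries as points shaped by day, lines for group means and bars for SD (n = 3). Egf and the Paneth sum lay lower in all 6 mutant libraries than in any control library, while Ereg overlapped and peaked at 0.639 FPKM on day 9 of set B.

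Tgfa, Hbegf and Btc made up most of the ligand transcripts in control and did not pass the test. Tgfa measured 8.03, 7.73 and 7.64 FPKM in control, 8.64, 7.92 and 8.85 for set A, and 8.81, 9.66 and 9.70 for set B. The controls lay close together, and 5 of 6 mutant libraries were above all of them, the day-9 library of set A being the exception. Its difference was 0.17 ± 0.06 (95% interval 0.04 to 0.30; limma, adjusted p = 0.152), with 6 of 6 day pairs higher. Hbegf, the gene for heparin-binding EGF-like growth factor, measured 5.73, 3.99 and 3.98 FPKM in control, 4.82, 5.28 and 5.84 for set A, and 5.60, 5.29 and 5.18 for set B. The day-8 control lay among the mutants and the other 2 controls below them. The difference was 0.20 ± 0.11 (95% interval -0.05 to 0.45; limma, adjusted p = 0.328). Btc, which codes for betacellulin, measured 2.98, 2.71 and 2.88 FPKM in control, 3.91, 3.29 and 2.39 for set A, and 3.03, 4.92 and 3.09 for set B. Btc was above its narrow control range in 5 of 6 mutant libraries, most on day 9 of set B, and below it on day 10 of set A. Its difference of 0.18 ± 0.15 did not pass (95% interval -0.17 to 0.54; limma, adjusted p = 0.539).

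None of the 3 receptor genes passed. Egfr, the receptor for all 6 of these ligands, measured 8.58, 8.73 and 7.30 FPKM in control, 7.78, 6.59 and 7.09 for set A, and 6.67, 6.86 and 6.58 for set B. In 5 of 6 mutant libraries it was below the lowest control, and the day-8 library of set A lay within the control range. The difference was -0.21 ± 0.07 (95% interval -0.38 to -0.05; limma, adjusted p = 0.156), and Egfr was lower in 6 of 6 day pairs. Areg and Egfr thus had differences of opposite sign, of which that of Areg passed. Erbb2, the receptor without a known ligand, measured 50.04, 40.3 and 32.8 FPKM in control, 45.9, 45.4 and 47.2 for set A, and 44.4, 40.2 and 41.8 for set B. The controls spanned the whole range of the mutants. Its difference was 0.12 ± 0.11 (95% interval -0.14 to 0.38; limma, adjusted p = 0.580), and it was -0.03 without the day-10 control library. Erbb3, a receptor for neuregulins, measured 64.2, 49.5 and 44.4 FPKM in control, 77.2, 60.4 and 80.4 for set A, and 71.4, 49.99 and 64.0 for set B. It was higher in 6 of 6 day pairs, but 3 of 6 mutant libraries lay within the control range. The difference was 0.34 ± 0.16 (95% interval -0.01 to 0.70; limma, adjusted p = 0.254).

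Errfi1, the feedback inhibitor, did not pass either. It measured 12.1, 8.08 and 9.34 FPKM in control, 10.0, 8.87 and 11.1 for set A, and 9.09, 13.4 and 10.7 for set B. Day 9 of set B was again the highest, and the groups overlapped over most of their range. The difference was 0.10 ± 0.14 (95% interval -0.23 to 0.42; limma, adjusted p = 0.741), and without the day-9 control library it was -0.02. Over all 8 tested members the median difference was 0.18, with 7 positive, against -0.00 over all tested genes, and 3 had an unadjusted p under 0.05 in limma, as did 21% of all tested genes.

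**Figure D4:**
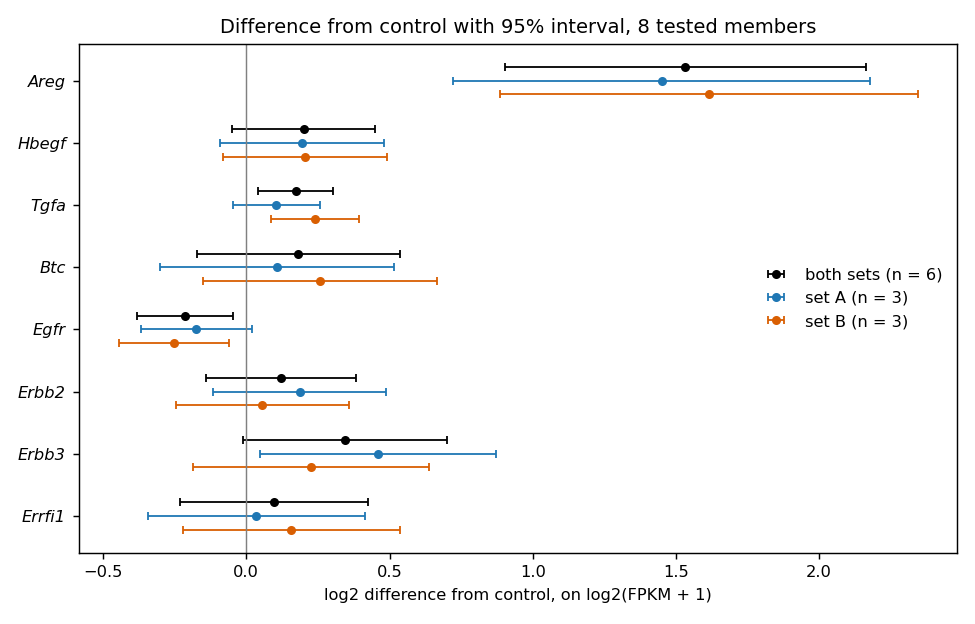
Difference between mutants and control on the log2(FPKM + 1) scale for the 8 tested members (points, with 95% intervals), for both sets together and for each set. Areg at 1.53 (0.90 to 2.16) lay farthest from 0, and Egfr at -0.21 was the member below 0 in the comparison of both sets.

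Each set was also compared with the same 3 control libraries. In set A 0 of 8 members passed (0.215% of all tested genes did), and 2 had an unadjusted p under 0.05 in limma, as did 16.7% of all. In set B 0 of 8 passed (0.628% of all), and 3 had an unadjusted p under 0.05, as did 16.5% of all. The Areg difference was 1.45 ± 0.32 in set A (limma, adjusted p = 0.113) and 1.61 ± 0.32 in set B (limma, adjusted p = 0.0820). With 1 library left out at a time it passed for set B in 1 of 9 fits, without day 8 of set A (limma, adjusted p = 0.0430). In that fit 69 of 12097 tested genes passed. The library left out is not part of this comparison. The Areg difference stayed at 1.61, and only the estimated spread changed. With libraries rescaled to equal totals 1 member passed in set B, Areg, and 0.521% of all tested genes did. With estimated library weights 3 members passed there, Areg, Egfr and Tgfa, and 16.8% of all tested genes did. The largest other difference by size was that of Erbb3 in set A, 0.46 ± 0.18 (limma, adjusted p = 0.258), against 0.23 ± 0.18 in set B (limma, adjusted p = 0.559).

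Set B minus set A asks whether the sets differ, which by the labels would be a difference in the Cdx2 allele. Of 8 members 0 passed, as did 0% of all tested genes (limma), with 0 members and 376 of all genes at an unadjusted p under 0.05. The difference of Areg was 0.16 (95% interval -0.56 to 0.89; limma, adjusted p = 1.00), so that neither a change in either direction nor its absence was shown. The largest by size was that of Erbb3, -0.23 (95% interval -0.65 to 0.18). Over days 8 to 10, with each group given its own level, 0 of 8 members and 0% of all tested genes had a slope that passed (limma), with 0 members and 390 of all genes at an unadjusted p under 0.05. The slope of Areg was 0.26 per day (95% interval -0.06 to 0.58; limma, adjusted p = 0.959). In both sets Areg was lowest on day 8 and highest on day 10, with 1 library behind each value, while in control it was lowest on day 9.

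Apart from Nrg4, the remaining ligands and the remaining receptor of the family were low. Erbb4, the other neuregulin receptor, was listed at 0 in all 9 libraries. Epgn, the neighbour of Ereg, reached at most 0.239 FPKM, Nrg1 at most 0.127 and Nrg2 and Nrg3 less. Nrg4, a neuregulin that binds ERBB4, measured 2.05, 2.39 and 2.35 FPKM in control, 1.49, 1.26 and 1.48 for set A, and 1.96, 2.14 and 2.42 for set B. Set A lay below the other 6 libraries. The differences were -0.44 in set A (limma, adjusted p = 0.119) and -0.04 in set B.

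The lists around the receptors gave 0 calls for ligand release, negative regulators and adaptors and kinases, and 3 for genes that respond to ERK activity. Of 8 tested proteases and cofactors that release ligands, out of 10 listed, 0 passed with a median difference of 0.18. Adam17, the main protease for Areg and Tgfa, was at 8.31 to 11.3 FPKM in control and 8.35 to 9.67 in the mutants (limma, adjusted p = 0.719). Rhbdf2, the gene for iRhom2, which carries ADAM17 to the cell surface, was at 14.0 to 17.7 FPKM in control and 17.3 to 22.5 in the mutants, a difference of 0.30 ± 0.10 (limma, adjusted p = 0.138). Adam15 differed by 0.32 ± 0.12 (limma, adjusted p = 0.191). Of 20 tested negative regulators, out of 21 listed, 0 passed (median -0.07). Cbl, a ubiquitin ligase that sends the activated EGF receptor to degradation, was at 6.11 to 6.89 FPKM in control and 4.16 to 5.46 in the mutants. These ranges did not overlap, as was found in either direction for 12.6% of all tested genes. The difference of Cbl was -0.39 ± 0.08 (limma, adjusted p = 0.0626). Dusp4, a phosphatase that switches ERK off, was at 1.92 to 3.04 FPKM in control and 2.46 to 7.59 in the mutants, a difference of 0.82 ± 0.26 (limma, adjusted p = 0.140).

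Of 25 adaptors and kinases below the receptors 0 passed (median 0.01). The nearest were Pik3r1, the regulatory subunit of PI3 kinase, at -0.34 ± 0.07 (limma, adjusted p = 0.0515), and Akt2, a kinase downstream of it, at 0.39 ± 0.10 (limma, adjusted p = 0.0874). With day 9 of set B left out, when 8.22% of all genes passed, 3 of 20 negative regulators passed (Cbl and Spry1 lower, Ptprj higher) and 3 of 25 adaptors and kinases (Stat3 and Akt2 higher, Pik3r1 lower). Spry1, Ptprj and Stat3 were chosen for naming after their values were seen. With estimated library weights, when 11.9% of all tested genes passed, Rhbdf2, Adam15, Cbl, Dusp4, Pik3r1 and Akt2 passed with the same sign (limma, adjusted p = 0.0470, 0.0383, 0.0150, 0.0473, 0.0128 and 0.0138). Pik3r1 also passed with the filter of 5 FPKM (limma, adjusted p = 0.0477) and without day 8 of set A, and Akt2 after rescaling to equal totals (limma, adjusted p = 0.0340).

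Of 13 tested genes known to respond to ERK activity, out of 14 listed, 3 rose and 0 fell, while 1.16% of all tested genes passed. The median difference of the list was 0.23, against -0.00 over all tested genes. This list was drawn up with earlier results on some of its genes known, so its direction is not independent evidence. Junb, which codes for a subunit of AP-1, ranged over 42.1 to 52.5 FPKM in control and 77.8 to 96.9 in the mutants, a difference of 0.80 ± 0.09 (limma, adjusted p = 0.0133). Plaur, the urokinase receptor gene, was at 0.537 to 1.11 FPKM in control and 1.92 to 2.54 in the mutants (0.84 ± 0.11; limma, adjusted p = 0.0179). Ier3, an early response gene, was at 4.28 to 5.03 FPKM in control and 6.03 to 9.38 in the mutants (0.60 ± 0.10; limma, adjusted p = 0.0415). The call of Ier3 was lost with the day as a block (limma, adjusted p = 0.0666) and with no filter (0.0597). In each of these genes, named because they passed, every mutant library was above every control library. Groups that did not overlap, in either direction, were found for 12.6% of all tested genes. Leaving out each library in turn, Junb passed in 7 of 9 fits, Plaur in 6 and Ier3 in 2. Junb did not pass without the day-9 or the day-10 control library, nor Plaur without either of these or without day 8 of set B. Ier3 passed without day 9 of either mutant set and in no other such fit. Without day 9 of set B 4 of 13 passed, Phlda1 being the further one, and 8.22% of all genes did. Junb and Ier3 also respond to the dissociation of tissue, and the stress gene sum given above did not overlap between the same groups, with 0 of 8 of its tested genes passing; its part was not tested.

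Other genes of the list did not pass. Egr1, an immediate early transcription factor gene, was at 2.34 to 3.72 FPKM in control and 3.45 to 12.8 in the mutants, with an adjusted p of 0.237 in limma. Etv4 and Etv5, transcription factor genes that ERK signalling induces, were highest on day 9 of set B, at 5.75 and 4.92 FPKM, against at most 2.95 and 1.91 in the other 8 libraries. Dusp6, a further ERK phosphatase on the list of negative regulators, was also highest there, at 13.5 FPKM. Ereg, Btc and Errfi1 had their highest values in the same library. From the ERK list, Egr1, Fos, Phlda1 and Epha2 were highest there too, while Junb, Plaur, Ier3, Emp1, Myc and Mcl1 were not. Ccnd1 (34.0 FPKM) and Fosl1 (0) were at their lowest there. This library stood apart from the other mutants, and the share of all genes that peaked in it was not counted.

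**Figure D5:**
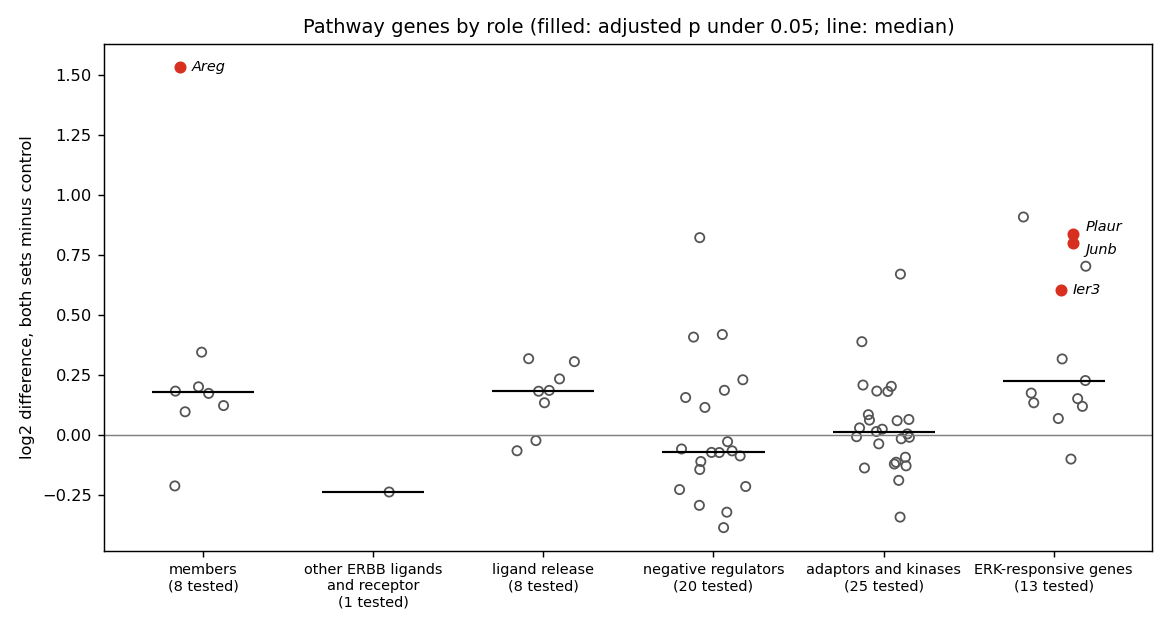
Difference between both mutant sets and control on the log2(FPKM + 1) scale for each tested member and pathway gene, 1 point per gene in a column per list, with lines for medians and filled points for genes that passed. These were Areg (1.53) among the members and Junb (0.80), Plaur (0.84) and Ier3 (0.60) among the genes that respond to ERK activity.

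Genes with a pattern over the 9 libraries like that of Areg were sought among 7815 tested genes. These had a mean log2(FPKM + 1) of at least 3, so lower genes, Areg and Btc among them, were not searched. Likeness was the root mean square difference of log2(FPKM + 1) after each gene's own mean was subtracted. The nearest were Gsn (0.345), which codes for the actin-severing protein gelsolin, Sprr2a3 (0.353), a small proline-rich protein gene whose close relatives make its own level uncertain, and Pla2g5 (0.373), a secreted phospholipase gene. The median distance of all genes searched from Areg was 0.805. The control and mutant means in FPKM were 9.20 and 20.3 for Gsn, 33.5 and 120 for Sprr2a3, and 25.4 and 73.9 for Pla2g5. Nearest to Erbb3 were Dpagt1 (0.119), Efna1 (0.122) and Slc39a1 (0.123), with a median of 0.295 over the genes searched. Nearest to Btc were Plscr3 (0.0460), C130074G19Rik (0.0540) and Sox4 (0.0800), with a median of 0.275. These distances describe the libraries and carry no test.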

How the data were processed

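The authors deposited 1 table of normalized values for 9 libraries, taken to be FPKM. The sources used here name no unit; it rests on the values, which were not whole, summed to different totals and stepped with transcript length. Each library had the same median ratio, 1.00276, to the geometric mean (15138 genes). Per the submitters' processing notes, DESeq2 1.40.1, kallisto 0.46.1 and the build mm9 were used, without roles. The annotation is not given in the sources used here. RefSeq (GRCm38.p6) and GENCODE M21 served only for gene order, promoters and transcript lengths. Matches of at least 90% identity to other genes were found for Egf (at most 131 bases) and Egfr (at most 123 bases). Fragment numbers come from steps between low values and cover counting error only.

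The design had been written with a rule for normalized values, which was used: log2(FPKM + 1) values of genes that reached 1 FPKM in 3 or more libraries were fitted with limma 3.58.1 (R 4.3.3). The model held group means of all 9 libraries, and variances were moderated with a trend and robustly. P-values were adjusted over all 12097 genes by Benjamini and Hochberg's method (threshold 0.05). The slope model added the day. Members under the filter had exact permutation tests, which took no account of the day. The fit was tested on simulated data with independent normal noise. These held no outlying library and no correlation between libraries, so they do not show how the fit behaves with either. The replicate number is the day in the labels, which pairs libraries. Deviations from group means correlated at -0.24 to 0.62 over 9 same-day pairs and at -0.55 to 0.29 over 18 others.

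All members are named. Each pathway list names its passing genes, or the 2 with the smallest p where none passed, with up to 4 a list. Further names, such as Egr1 or Etv4, were picked with their values in view. The members, lists and tests were chosen with earlier results of these data known. Alternatives were a pseudocount of 0.1, a filter of 5 FPKM or none, libraries rescaled to equal totals, estimated library weights, a block for the day, a fit of only the groups compared, and each library left out in turn. For named pathway genes and list counts these were added after the data were seen. No column was left out.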

Additional observations from a re-analysis of the deposited data

How the results depend on the processing

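In the comparison of both sets with control, 80 genes passed with no filter and 1438 with library weights, against 140. Leaving out a library gave 17 to 994, the highest without day 9 of set B. In set A 44 passed with weights and 16 with the replicate block, against 26, and 3 to 124 with a library left out. In set B 2035 passed with weights and 33 with the compared groups alone, against 76, and 18 to 477 with a library left out. Between the sets 2 passed with a pseudocount of 0.1 and 3 with weights, against 0, and 0 to 1 with a library left out. Rescaling to equal totals moved the median of all genes from -0.00 to 0.04 and the split of calls for both sets from 62 higher and 78 lower to 133 and 36.

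Of the members, 1 passed for both sets, 0 with no filter, 0 with the replicate block (the day as pairing) and 0 to 1 with a library left out. In set B 1 passed after rescaling, 3 with weights and 0 to 1 with a library left out, against 0. The block changed 1 further named call, that of Ier3. The difference of Areg between both sets and control had an adjusted p of 0.0160 to 0.0680 in the settings that kept all libraries. Egf kept its sign in every setting tried, and its exact permutation p was 0.0238 after rescaling. With a library left out it was 0.0179 to 0.0357, each the smallest those numbers allow, for differences of -0.43 to -0.25. These permutation p-values follow largely from the lack of overlap already given and are no further support.

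Differences near 0 changed sign. Set B minus set A was -0.027 for Hbegf after rescaling, and -0.053 for Btc and -0.020 for Errfi1 with weights. The slope per day was 0.0046 for Hbegf with weights, and -0.042 for Tgfa and -0.055 for Errfi1 after rescaling. With a library left out, set B minus set A ran from -0.15 to 0.43 for Areg, -0.046 to 0.071 for Hbegf, -0.032 to 0.27 for Btc and -0.012 to 0.24 for Errfi1. For both sets the range was -0.026 to 0.27 for Erbb2 and -0.023 to 0.24 for Errfi1. For set A it was -0.014 to 0.25 for Btc and -0.085 to 0.18 for Errfi1, and for set B -0.091 to 0.21 for Erbb2. Slopes ran from -0.11 to 0.030 for Hbegf, -0.0070 to 0.033 for Tgfa and -0.077 to 0.10 for Errfi1. The cause was not tested. Depth limits Ereg and Egf most.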
